A study of Homo sapiens with 104 samples.

Results

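The heat shock chaperones examined here are 10 human genes: the mitochondrial chaperonin pair HSPD1 and HSPE1, the cytosolic HSP70 machine (HSPA8, HSPA4, HSPH1 and DNAJB1), the cytosolic HSP90 pair HSP90AA1 and HSP90AB1, the small heat shock protein HSPB1 and the transcription factor HSF1. They were chosen by name, through the probe sets of an Affymetrix array that carry a single one of these symbols in the platform annotation. HSPA8 has 4 probe sets, each of which also carries symbols of other genes, and was not measured. The other 9 genes have 25 probe sets between them, and all 9 were among the 13842 genes tested. RNA came from 26 human lymphoblastoid lines (B cells grown as permanent cultures), each untreated and treated, with duplicate arrays that make 52 groups of 2. The conditions were MNNG, a chemical that methylates DNA, and no treatment. The lines were a panel of 24 numbered lines, MT1 and TK6. TK6 is an established line, and MT1 was derived from it and lacks mismatch repair. The sources used here do not state the dose or duration of MNNG. They also do not call the duplicates separate cultures, so a p-value based on duplicates may reflect no more than technical spread.

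Heat shock proteins bind unfolded or partly folded proteins. HSP70 proteins such as HSPA8 hold a client in an ATP-driven cycle that J-domain proteins such as DNAJB1 start and exchange factors such as HSPH1 and HSPA4 end, and HSP90 proteins take many kinases and receptors through their last folding steps. In the mitochondrial matrix HSPD1 (HSP60) forms a barrel that encloses a folding protein, and HSPE1 (HSP10) is its lid. HSPB1 (HSP27) holds unfolded proteins without ATP, and HSF1 is the transcription factor that raises heat shock genes on proteotoxic stress, at DNA elements made of repeated nGAAn units.

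RefSeq promoter windows (GRCh38.p14, 300 bases: 250 before and 50 from each annotated start) were held for 9 of the 10 genes, 15 windows in all. HSPD1 and HSPE1 stand head to head on chromosome 2, with annotated starts at 197500274 (minus strand) and 197500379 (plus strand). The whole stretch between both starts lies at chr2:197500275-197500378, and it is shown, on the plus strand, because both genes are read out of it in opposite directions while their transcripts changed unequally with MNNG.
HSPD1-HSPE1 interval: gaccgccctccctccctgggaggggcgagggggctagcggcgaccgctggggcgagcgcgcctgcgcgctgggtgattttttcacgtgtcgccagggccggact
HSP90AA1 has a window with adjoining nGAAn units, and its 250 bases before the annotated start at chr14:102087045-102087294 (minus strand) are shown with the units in capitals.
HSP90AA1: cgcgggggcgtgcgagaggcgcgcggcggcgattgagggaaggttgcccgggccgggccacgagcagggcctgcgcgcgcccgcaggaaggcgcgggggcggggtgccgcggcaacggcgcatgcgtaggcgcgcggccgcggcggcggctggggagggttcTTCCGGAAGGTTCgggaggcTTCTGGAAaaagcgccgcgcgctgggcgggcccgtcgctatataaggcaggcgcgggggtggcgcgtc
HSPA8, which was not measured, also had matches, and its stretches are not shown. The stretches with matches in the windows of 4 other members follow, 5′ to 3′ on each gene's own strand, again with the matched units in capitals.
HSPD1, chr2:197500065-197500088 (minus strand): attTTCTGGAAAGTTCTGGAAccg
HSP90AB1, chr6:44247775-44247793 (plus strand): aggTTCTGGAAGATTCatg
HSP90AB1, chr6:44247828-44247846 (plus strand): ttgTTCTGGAAGCTTCtgg
DNAJB1, chr19:14518464-14518477 (minus strand): gcgGAAGGTTCtgg
DNAJB1, chr19:14518434-14518447 (minus strand): ctgGAAGCTTCcgc
DNAJB1, chr19:14517926-14517939 (minus strand): ccaGAAGCTTCtag
HSPB1, chr7:76302488-76302501 (plus strand): agaGAAGGTTCcag
The motifs searched were GAANNTTC and TTCNNGAA, which are their own reverse complements and so are read on both strands, and the overlapping arrays of 3 units GAANNTTCNNGAA and TTCNNGAANNTTC. GAANNTTC occurs in 6.77%, TTCNNGAA in 7.74% and an array of 3 units in 0.49% of all 35116 RefSeq promoter windows of the same length. Of the 9 genes with a window, 6 had at least 1 match to a pair and 4 (HSPD1, HSPA8, HSP90AA1 and HSP90AB1) had an array of 3 units. These are counts of genes, some with several windows, while the shares count single windows. HSPD1, HSP90AA1 and HSP90AB1 each held their matches in 1 window, and their other windows held none. The single windows of HSPE1, HSPH1 and HSPA4 held no match, which says only that these letters are not in those bases.

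Of the 52 MNNG arrays, 22 were left out because a pair of probe sets for a spiked-in control transcript differed by -6.45 to -5.19 log2 units, a direction not seen on any of the 30 others. The kept arrays cover 19 of the 24 panel lines (8 with both MNNG arrays and 11 with 1), TK6 with 2 and MT1 with 1. B-cell markers were present throughout: 9 of the 10 listed had a probe set and passed the filter on low values, with summed intensities of 14234 to 28671 on MNNG arrays and 13786 to 30734 on untreated arrays. The summed intensities of the T and NK cell markers were 312 to 547 on MNNG arrays and 271 to 876 on untreated arrays. In RNA from whole cultures, fewer cells with a transcript and less of it per cell cannot be told apart. Levels below are normalised log2 values of the intensity plus 16, a scale on which a difference of 1 is a doubling and which understates changes of dim genes. No level of one gene is set against that of another, since probe sets differ in brightness.

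In the 19 panel lines the chaperone genes changed little on average with MNNG, and in both directions. HSPE1, DNAJB1 and HSP90AA1 rose, by 1.28-fold, 1.09-fold and 1.05-fold, and HSP90AB1 and HSPA4 fell, to 0.896 and 0.904 of the untreated level. The other 4 members, HSPD1, HSPH1, HSPB1 and HSF1, did not pass the test. In this comparison 42.6% of all genes tested were called at an adjusted p below 0.05 (limma with Benjamini-Hochberg adjustment), 28.7% higher and 13.8% lower, so 5 calls among 9 members are not set apart by their number. The median change was 0.073 over the 9 members and 0.037 over all genes. With median centring of the arrays in place of quantile normalisation, the calls over all genes were 950 higher and 2341 lower, against 3978 higher and 1914 lower here.

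**Figure D1:**
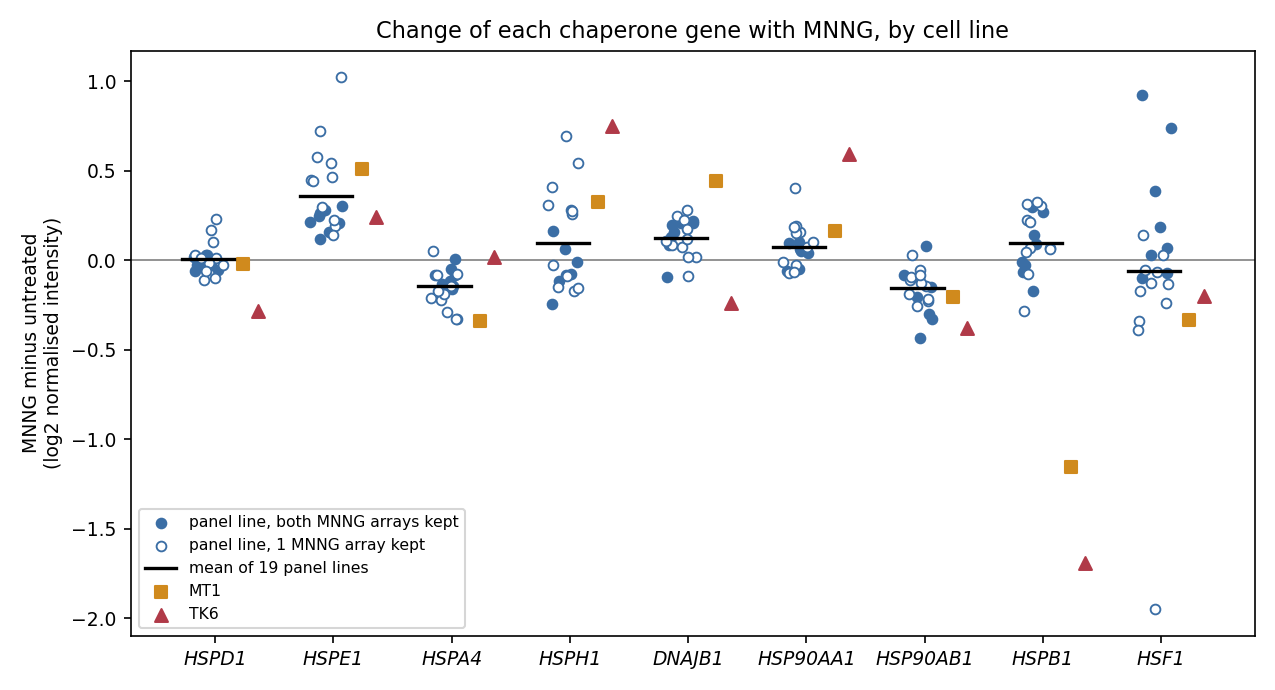
Change of each member with MNNG (vertical axis, MNNG minus untreated, log2 normalised intensity), with a circle for each of 19 panel lines (filled for lines with both MNNG arrays kept, open for 1), a bar for their mean, a square for MT1 and a triangle for TK6. All 19 panel circles of HSPE1 lie above 0, from 0.12 to 1.02, while those of HSPD1 lie on both sides of it, from -0.11 to 0.23.

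The chaperonin lid HSPE1 had levels of 10.89 (lowest), 11.52 (median) and 12.06 (highest) in MNNG-treated panel lines, against 10.60, 11.08 and 11.52 in the same lines untreated. It was higher with MNNG in 19 of 19 lines, although the ranges overlap, because lines differ in level. The mean change was 0.36 ± 0.048 (SE, n = 19 lines; adjusted p = 2.76e-06, limma). The smallest change was 0.12 in line 10 and the largest 1.02 in line 20. Its barrel partner HSPD1 had levels of 12.31, 12.67 and 12.95 with MNNG, against 12.37, 12.63 and 12.93 untreated. HSPD1 was higher in 9 lines and lower in 10, with a mean change of 0.0060 ± 0.020 (SE, n = 19; adjusted p = 0.835, limma; 95% interval -0.035 to 0.047).

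The change of HSPE1 minus that of HSPD1 was above 0 in 19 of 19 lines, with a mean of 0.35 ± 0.18 (SD, n = 19) and a range of 0.13 to 0.79. The pair was chosen after its values were seen, so no test of this difference is given. HSPE1 changed by 0.46 ± 0.26 (SD, n = 11) in lines with 1 kept MNNG array and by 0.22 ± 0.063 (SD, n = 8) in lines with both, and it was higher with MNNG in every line of either kind. The part that the arrays left out play in this difference was not tested. In the 8 lines with both arrays HSPE1 passed the test on their own (0.22, adjusted p = 0.00244, limma), and with arrays centred on their medians it did not (0.20, adjusted p = 0.0875).

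**Figure D2:**
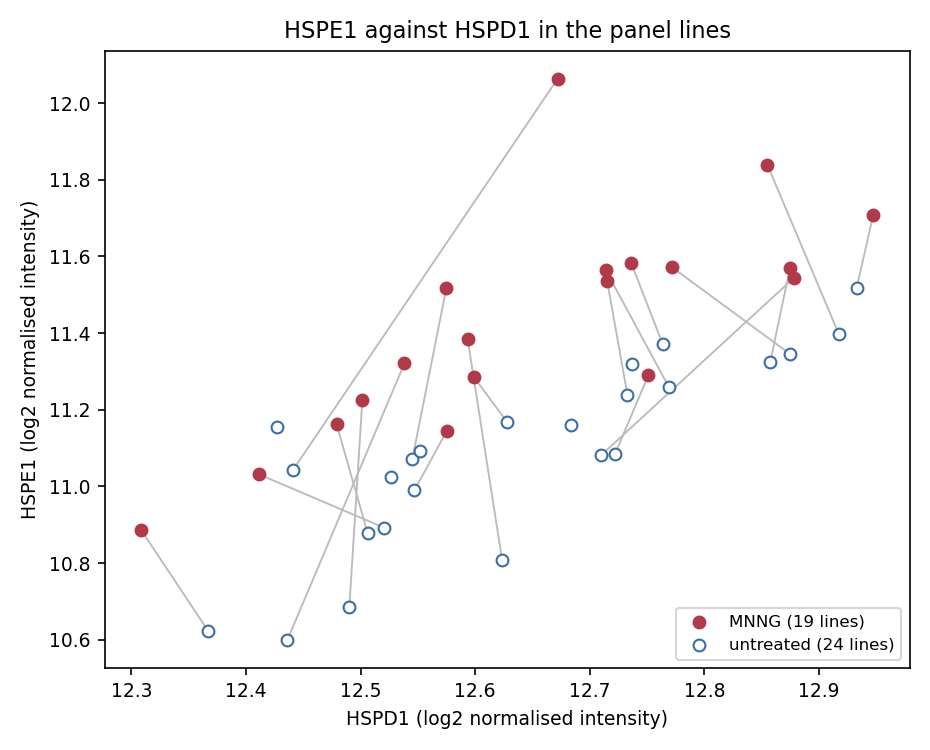
Level of HSPE1 (vertical axis) against that of HSPD1 (horizontal axis), both in log2 normalised intensity, with MNNG as filled circles (19 panel lines) and untreated as open circles (24 panel lines) and a grey line joining both conditions of a line. Every joining line runs upward to its MNNG circle, while it leans to the left or to the right.

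Within the HSP70 machine the members moved in different directions. DNAJB1, the J-domain protein that hands clients to HSP70, had levels of 7.25, 7.79 and 8.17 (lowest, median and highest) in MNNG-treated lines, against 7.06, 7.67 and 8.15 untreated. It was higher in 17 of 19 lines, by 0.12 ± 0.028 (SE, n = 19; adjusted p = 0.00108, limma). HSPA4, an exchange factor of the HSP110 family, had 9.87, 10.30 and 10.57 with MNNG, against 9.92, 10.45 and 10.62 untreated. It was lower in 17 of 19 lines, with a change of -0.15 ± 0.025 (SE, n = 19; adjusted p = 4.68e-05, limma), and all 4 of its probe sets were called lower, with changes of -0.15 to -0.35. Both calls have limits. Without the arrays of replicate 1 (10 lines left) HSPA4 changed by -0.11 (adjusted p = 0.109, limma). DNAJB1 lost its call there (0.099) and as the mean of both its probe sets (0.072). Its call was also lost in the 8 lines with both arrays (0.14), without a line block (0.12) and with median centring (0.0051). With a replicate block both genes were called, DNAJB1 at 0.21 and HSPA4 at -0.14.

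HSPH1, the other HSP110 exchange factor, had levels of 9.17, 10.37 and 10.85 with MNNG, against 9.25, 10.32 and 10.66 untreated. It was higher in 9 lines and lower in 10, and its mean change of 0.098 ± 0.056 (SE, n = 19; adjusted p = 0.163, limma) did not pass the test. Its probe sets disagreed: a dimmer one was called lower at -0.53 ± 0.085 and the dimmest higher at 0.21 ± 0.044. The dimmest was under an intensity of 100 on 79 of the 82 arrays. No panel-wide direction of HSPH1 can be given from these probe sets.

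The HSP90 genes were called in opposite directions. HSP90AB1, the form that cells make at all times, had 11.65, 12.00 and 12.24 with MNNG, against 11.98, 12.16 and 12.35 untreated. It was lower in 17 of 19 lines, by a change of -0.16 ± 0.027 (SE, n = 19; adjusted p = 5.6e-05, limma), and all 3 of its probe sets were called lower, with changes of -0.16 to -0.29. HSP90AA1, the stress-inducible form, had 12.05, 12.53 and 12.66 with MNNG, against 12.01, 12.46 and 12.59 untreated. It was higher in 13 of 19 lines, by 0.073 ± 0.026 (SE, n = 19; adjusted p = 0.0233, limma).

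The change of HSP90AA1 minus that of HSP90AB1 was above 0 in 19 of 19 lines, with a mean of 0.23 ± 0.14 (SD, n = 19) and a range of 0.017 to 0.51. This pair too was chosen after its values were seen, and no test of the difference is given. The rise of HSP90AA1 depended on the processing: it was not called on the deposited values (0.025), as the mean of its probe sets (0.039) or in the lines with both arrays (0.040), without either replicate (0.066 and 0.047), with a replicate block (0.061) or without a line block, and its sign turned on median centring (-0.13, adjusted p = 0.28). The difference between both genes was 0.21 on the deposited values and 0.26 as the mean of probe sets. Median centring shifts all genes of an array alike, so it leaves the difference as on the deposited values. The call of HSP90AB1 was lost without the arrays of replicate 1 (-0.15, adjusted p = 0.0884).

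HSPB1, which holds unfolded proteins, changed by -0.28 to 0.33 between lines, with a mean of 0.094 ± 0.038 (SE, n = 19; adjusted p = 0.0523, limma) and was higher in 13 lines. That p lies at the threshold, and leaving out 1 line at a time moved it to between 0.0109 and 0.0496 for 6 of the 19 lines. HSF1 was higher in 8 lines and lower in 11, with a mean change of -0.060 ± 0.12 (SE, n = 19; adjusted p = 0.709, limma). Its changes of -1.95 in line 17 and 0.92 in line 14 each contain a single array with an intensity near the floor of the scale, the MNNG array of replicate 2 in line 17 (30.1) and the untreated array of replicate 2 in line 14 (16.0). A dimmer HSF1 probe set was called lower at -0.42 ± 0.051, and it was under an intensity of 100 on 80 of the 82 arrays. The mean of both probe sets was called lower as well (-0.24, adjusted p = 0.017).

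Whether lines differed in their response was tested with an F test over the 19 lines on single arrays, in which 6.13% of all genes were called (limma with Benjamini-Hochberg adjustment). HSPH1, HSPE1 and HSP90AB1 were called among the 9 members. HSPH1 had an F of 5.15 (adjusted p = 0.00062), with changes of -0.24 in line 10 to 0.69 in line 17. The only kept MNNG array of line 17 had a median intensity of 16.0, at the floor of the scale. HSPE1 had an F of 4.74 (adjusted p = 0.00137), which was 2.56 without line 20 (adjusted p = 0.104), 0.55 in the 8 lines with both MNNG arrays (adjusted p = 0.949) and 1.69 on median centring (adjusted p = 0.302). With a replicate block it was not called either (adjusted p = 0.169). HSP90AB1 had an F of 2.97 (adjusted p = 0.04), with changes of -0.43 in line 12 to 0.081 in line 14. In line 14 untreated replicate 2 and MNNG replicate 1 also had a median intensity of 16.0. The call of HSP90AB1 was lost when any of 8 lines was left out, with the lowest F, 2.04, without line 12. Its call was also lost on the deposited values (F = 1.97, adjusted p = 0.63), on median centring (1.59, adjusted p = 0.347) and as the mean of its probe sets (2.10, adjusted p = 0.205). The same held without a trend (2.40, adjusted p = 0.121), with no filter on low values (2.88, adjusted p = 0.0628) and with a replicate block (adjusted p = 0.311). In the 8 lines with both MNNG arrays HSP90AB1 kept its call, with an F of 8.645 (adjusted p = 0.00596). The F of HSPH1 kept its call without each line in turn, and was 4.69 in the lines with both arrays (adjusted p = 0.0821) and 2.29 on the deposited values (adjusted p = 0.443). Line 20, with 1 kept MNNG array, had the highest change of 4 members: HSPE1 (1.02), HSP90AA1 (0.40), DNAJB1 (0.28) and HSPD1 (0.23).

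Over the 19 lines the changes of HSP90AA1 and HSPH1 followed each other, with a Pearson r of 0.85 and a Spearman rho of 0.89, and an r of 0.86 without the 2 lines farthest from the median of HSP90AA1. The changes of HSPE1 and HSPD1 had an r of 0.70 but a rho of 0.38, and an r of 0.44 without 2 lines. These are descriptions, since both values of a line come from the same arrays.

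Untreated levels differed between the 24 panel lines for most genes (68.1% called by the F test), and for 8 of the 9 members. HSPB1 had the widest range among the members, 7.78 in line 2, a median of 9.40 and 10.73 in line 17, a 7.70-fold span. Its standard deviation across lines, 0.68, was larger than that of 94.2% of all genes. HSPH1 spanned 2.66-fold, with 9.25 in line 12, a median of 10.30 and 10.66 in line 24. DNAJB1 spanned 2.45-fold, with 6.86 in line 11, a median of 7.68 and 8.15 in line 15.

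HSP90AB1, HSPA4, HSP90AA1 and HSPD1 had standard deviations across lines of 0.10 to 0.16, below the median of 0.20 over all genes. HSP90AB1 spanned 1.31-fold between 11.95 in line 16 and 12.35 in line 1, and only 3.76% of genes had a smaller standard deviation than its 0.10. HSPD1 spanned 1.48-fold (12.37 in line 12 to 12.93 in line 1), HSP90AA1 lay between 12.01 in line 23 and 12.59 in line 24, and HSPA4 spanned 1.62-fold (9.92 in line 12 to 10.62 in line 13). HSPE1 spanned 1.89-fold, with 10.60 in line 23 and 11.52 in line 1, and its standard deviation of 0.25 was larger than that of 65.1% of genes. Line 1 held the highest untreated level of HSPD1, HSPE1 and HSP90AB1, and line 12 the lowest of HSPD1, HSPH1, HSPA4 and HSF1. Neighbouring lines mostly cannot be ordered. The standard deviation between untreated duplicates was 0.046 for HSPD1, 0.068 for HSP90AA1, 0.10 for HSPH1 and 0.17 for HSPB1. For HSP90AB1 it was 0.078, close to its 0.10 across lines, and the duplicates of its lowest line, line 16, were 11.78 and 12.13. HSF1 was the member without a call (F = 1.05, adjusted p = 0.483), and its duplicates differed by a standard deviation of 0.44, with single arrays near the floor in lines 12 and 14.

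**Figure D3:**
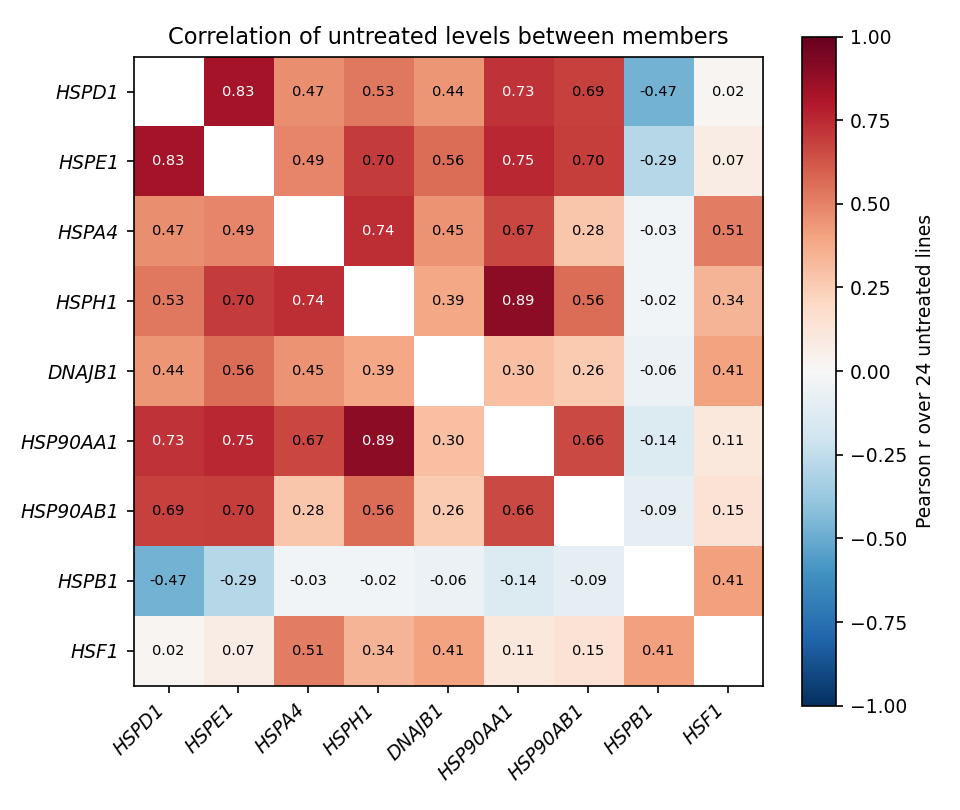
Pearson correlation of untreated levels between each pair of the 9 measured members over the 24 panel lines, in colour and as numbers. HSP90AA1 with HSPH1 (0.89) and HSPD1 with HSPE1 (0.83) are the highest, and the row of HSPB1 is below 0 except with HSF1.

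Of the 36 pairs of members 29 had a Pearson correlation of untreated levels above 0 over the 24 lines, with a median of 0.43. HSP90AA1 and HSPH1 had a Pearson r of 0.89 and a Spearman rho of 0.87 (r = 0.84 without the 2 lines farthest from the median of HSP90AA1), and HSPD1 and HSPE1 an r of 0.83 and a rho of 0.86 (r = 0.78 without 2 lines). HSPB1 had an r below 0 with 7 of the 8 others, down to -0.47 with HSPD1 and -0.29 with HSPE1. The rank correlation of HSF1 was below 0 with HSPD1 (rho = -0.26), HSPE1 (-0.27), HSP90AA1 (-0.077), HSP90AB1 (-0.041) and HSPH1 (-0.044). The Pearson r of these pairs, in the same order, was above 0 (0.020, 0.073, 0.11, 0.15 and 0.34). HSF1 was not called for differences between untreated lines (F = 1.05, adjusted p = 0.483, limma F test), so neither sign can be relied on. All these values share arrays and their normalisation. By its r with HSPD1, HSPE1 ranked 52 among all genes, and by its r with HSP90AA1, HSPH1 ranked 4.

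The gene closest to HSPH1 over the 24 lines was CHORDC1, which encodes an HSP90 cochaperone (r = 0.94, rho = 0.88), followed by PSMD2, a subunit of the proteasome's regulatory particle (r = 0.93). CHORDC1 was also closest to HSPA4 (r = 0.79), before NDUFA8, a subunit of respiratory complex I (r = 0.77). HSPD1 was closest to ZWILCH, a kinetochore protein (r = 0.92), and MAIP1, a mitochondrial matrix protein (r = 0.90), and HSPE1 to RBM8A, a core protein of the exon junction complex, and ZWILCH (r = 0.90 and 0.89). HSP90AA1 was closest to the RNA helicase DHX9 (r = 0.93) and the spliceosomal GTPase EFTUD2 (r = 0.91), and HSP90AB1 to the splicing regulator PTBP1 and the 14-3-3 protein YWHAH (r = 0.80 and 0.79). DNAJB1 was closest to MCRS1 (r = 0.89) and the chromatin factor BAZ1B (r = 0.86), HSPB1 to the mitochondrial lipid kinase AGK and the receptor GPR153 (r = 0.81 for each), and HSF1 to HDGFL2 (r = 0.84) and FBXL19 (r = 0.79, with a rho of 0.43).

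In MNNG-treated TK6, HSPH1 rose 1.68-fold, HSP90AA1 1.51-fold and HSPE1 1.18-fold, and HSP90AB1, HSPD1 and HSPB1 fell, to 0.77, 0.82 and 0.309 of the untreated level, HSPB1 on the strength of 1 array. DNAJB1, HSPA4 and HSF1 were not called. Over all genes 41.2% were called, 21.6% higher and 19.5% lower, beside 6 of 9 members, 3 each way. The median change was -0.20 over the members and -0.029 over all genes. These contrasts come from 1 model with a mean for each line and condition, so that all kept arrays share an estimate of the spread.

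HSPH1 had levels of 11.17 and 11.29 in MNNG-treated TK6, against 10.59 and 10.37 untreated, so both treated arrays lay above both untreated ones. The change was 0.75 ± 0.10 (SE, n = 2 each; adjusted p = 4.76e-08, limma). A dimmer probe set of HSPH1 changed by 0.37 ± 0.20 and was not called, and the dimmest was called higher at 0.50 ± 0.16 (SE). HSP90AA1 had 12.54 and 12.75 with MNNG, against 12.03 and 12.07 untreated, again without overlap. The change was 0.60 ± 0.065 (SE, n = 2 each; adjusted p = 4.71e-10, limma), and all 4 of its probe sets were called higher, at 0.51 to 0.69. HSPE1 had 10.82 and 10.92 with MNNG, against 10.59 and 10.66 untreated, a change of 0.24 ± 0.090 (SE, n = 2 each; adjusted p = 0.0278, limma). The call of HSPE1 was lost without MNNG replicate 2 (0.19, adjusted p = 0.193), without untreated replicate 1 (0.20, adjusted p = 0.162), on the deposited values (0.19) and on median centring, where the change was -0.010.

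HSP90AB1 had 11.91 and 11.95 in MNNG-treated TK6, against 12.32 and 12.30 untreated. The change was -0.38 ± 0.068 (SE, n = 2 each; adjusted p = 1.18e-05, limma), and all 3 of its probe sets were called lower, down to -0.95. HSPD1 had 12.40 and 12.47 with MNNG, against 12.77 and 12.68 untreated, a change of -0.29 ± 0.055 (SE, n = 2 each; adjusted p = 3.32e-05, limma). In both genes the treated arrays lay below the untreated ones. So HSPE1 and HSPD1 were called in opposite directions in TK6, and so were HSP90AA1 and HSP90AB1, as 4 changes called one by one. On median centring HSPH1 (0.50), HSP90AA1 (0.34) and HSPD1 (-0.55) kept their directions and lost their calls. HSP90AB1 (-0.67) kept its call there. HSPE1 (-0.010) lost both its direction and its call, so the opposite directions of HSPE1 and HSPD1 did not hold on median centring.

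HSPB1 in TK6 rests on 1 array: it had 5.98 and 8.60 with MNNG, against 8.96 and 9.01 untreated. The change was -1.69 ± 0.41 (SE, n = 2 each; adjusted p = 0.000767, limma), and -0.38 without MNNG replicate 1 (adjusted p = 0.469). DNAJB1 had 8.87 and 8.57 with MNNG, against 8.79 and 9.13 untreated, which overlap, and changed by -0.24 ± 0.20 (SE; adjusted p = 0.381, limma). Its other probe set was called lower at -1.22 ± 0.12 in TK6. HSPA4 changed by 0.020 ± 0.067 and HSF1 by -0.20 ± 0.36 (SE), neither called. A dimmer HSPA4 probe set, under an intensity of 100 on 43 of the 82 arrays, was called higher in TK6 (0.70 ± 0.12, SE; adjusted p = 5.53e-06, limma).

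**Figure D4:**
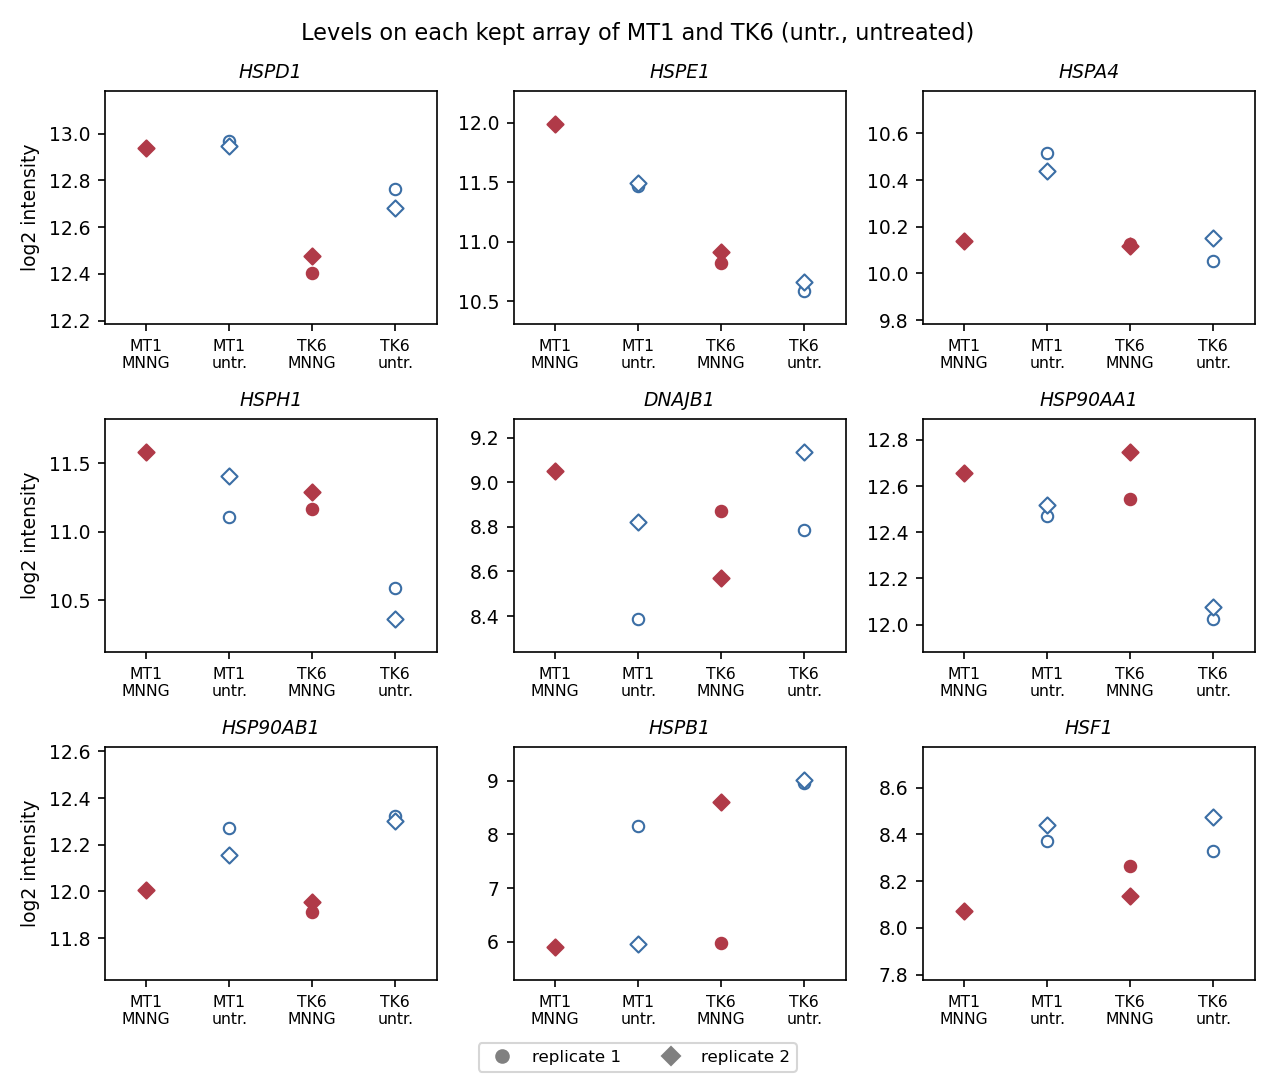
Level of each member (vertical axis, log2 normalised intensity, a scale of its own in each panel) on every kept array of MT1 and TK6, filled red with MNNG and open blue untreated, circles for replicate 1 and diamonds for replicate 2. The TK6 MNNG arrays of HSPH1 and HSP90AA1 lie above the untreated ones, and HSPB1 has a low array in MT1 with MNNG, in MT1 untreated and in TK6 with MNNG.

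MT1 had 1 kept MNNG array, which is assumed to vary like the other groups, and 3.56% of all genes were called in it, 2.36% higher and 1.21% lower. Of the members HSPE1 rose and HSPA4 fell, though the call of HSPA4 was lost on the deposited values (-0.28). Probe sets of HSPA4 at -0.34 and -0.59 were called lower, and those at -0.28 and -0.42 were not called. HSPE1 had 11.99 with MNNG, against 11.47 and 11.50 untreated, a change of 0.51 ± 0.11 (SE; adjusted p = 0.005, limma). HSPA4 had 10.14 with MNNG, against 10.52 and 10.44 untreated, a change of -0.34 ± 0.082 (SE; adjusted p = 0.0142, limma). Neither was called when TK6 and MT1 were fitted alone, where limma called 0 genes and 1623 had an unadjusted p below 0.05 (adjusted p = 0.211 for HSPE1 and 0.306 for HSPA4), on median centring (0.061 and -0.72) or with a replicate block (adjusted p = 0.0757 and 0.149), and HSPA4 was not without untreated replicate 1 (-0.30, adjusted p = 0.101). Over all genes the calls were 326 higher and 167 lower, against 15 higher and 52 lower on median centring and 92 higher and 7 lower on the deposited values.

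Among the 7 members not called in MT1, HSPD1 changed by -0.019 ± 0.067, HSP90AA1 by 0.16 ± 0.080, HSP90AB1 by -0.21 ± 0.083 and HSPH1 by 0.32 ± 0.12 (SE). A dimmer HSPH1 probe set was called lower there (-0.86 ± 0.25, SE; adjusted p = 0.0449, limma). HSPB1 had 5.91 with MNNG, against 8.16 and 5.96 in the untreated duplicates, so its untreated duplicates lay further apart than the treated array lay from their mean. Without the lower of them the change was -2.25 (adjusted p = 0.00507, limma), and without the higher it was -0.059 and not called.

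The response of MT1 was set against that of TK6 in the same model, where 24.7% of all genes were called, 12.5% higher and 12.2% lower in MT1. The change in MT1 was below that in TK6 for HSP90AA1 (a difference of -0.44 ± 0.10, SE; adjusted p = 0.00124, limma), HSPH1 (-0.43 ± 0.16; adjusted p = 0.0453) and HSPA4 (-0.36 ± 0.11; adjusted p = 0.00992), and above it for HSPD1 (0.27 ± 0.087; adjusted p = 0.0193). The other 5 members were not called, though DNAJB1 (1.06) and HSP90AB1 (0.49) were as means of their probe sets, and HSPB1 was without either TK6 MNNG replicate 2 (1.85) or MT1 untreated replicate 1 (1.63). HSP90AA1 kept its call without each single array in turn, HSPA4 lost it without TK6 untreated replicate 1 (-0.31, adjusted p = 0.0544), HSPD1 without 3 arrays in turn (0.23 to 0.26) and HSPH1 without 3 in turn (-0.28 to -0.37). All 4 lost their calls on the deposited values, on median centring and with TK6 and MT1 fitted alone. HSPD1 also lost its call as the mean of its probe sets (0.19), without a trend (0.27) and with a replicate block (0.28). HSPH1 lost it without a trend and with no filter on low values (-0.43 in both), and HSPA4 with a replicate block (-0.32). Other probe sets of HSPA4 differed by -1.29 (called), -0.33 and 0.071 (neither called). Over all genes the calls were 1733 higher and 1682 lower, against 530 higher and 1152 lower on median centring.

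Before treatment MT1 differed from TK6 in most members. HSPE1 was 1.81-fold, HSPH1 1.71-fold, HSP90AA1 1.36-fold, HSPA4 1.30-fold and HSPD1 1.18-fold higher in MT1, and HSPB1 was lower. Over all genes 25.2% were called, 13.6% higher and 11.7% lower, beside 5 members higher and 1 lower. The median difference was 0.23 over the members and 0.012 over all genes.

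HSPE1 had 11.47 and 11.50 in untreated MT1, against 10.59 and 10.66 in untreated TK6, a difference of 0.86 ± 0.090 (SE, n = 2 each; adjusted p = 3.44e-10, limma). HSPH1 had 11.11 and 11.40 in MT1, against 10.59 and 10.37 in TK6, a difference of 0.78 ± 0.10 (SE, n = 2 each; adjusted p = 5.05e-08, limma). HSP90AA1 had 12.47 and 12.52 in MT1, against 12.03 and 12.07 in TK6, a difference of 0.45 ± 0.065 (SE, n = 2 each; adjusted p = 6.86e-07, limma). For all of these genes the duplicates of MT1 lay above those of TK6. With MNNG, HSP90AA1 in TK6 (12.54 and 12.75) stood above its level in untreated MT1 (12.47 and 12.52).

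HSPA4 was higher in MT1 by 0.37 ± 0.067 (SE, n = 2 each; adjusted p = 2.62e-05, limma) and HSPD1 by 0.23 ± 0.055 (adjusted p = 0.000961). HSPD1 was not called as the mean of its probe sets (0.086), 3 of which lie near the floor, or on the deposited values (0.21). On median centring HSP90AA1 (0.41), HSPA4 (0.32) and HSPD1 (0.18) kept their directions and lost their calls. HSPB1 differed by -1.92 ± 0.41 (SE; adjusted p = 0.000311, limma), and by -0.82 without MT1 untreated replicate 2 (adjusted p = 0.171). HSP90AB1 (-0.099), DNAJB1 (-0.36) and HSF1 (0.0039) were not called, though DNAJB1 was as the mean of both its probe sets (-0.47, adjusted p = 0.00969).

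Against the 24 untreated panel lines, the mean untreated level of DNAJB1 and that of HSF1 lay above every panel line in MT1 and in TK6. For HSF1 the means were 8.41 in MT1 and 8.40 in TK6, against a highest panel mean of 8.19. Its untreated panel duplicates differed by a standard deviation of 0.44, so its position is uncertain. HSPH1 and HSPD1 in MT1 also lay above all 24 lines, and HSPE1 above 23. For HSPD1 the arrays of MT1 (12.97 and 12.95) overlapped those of line 1 (12.99 and 12.88), so that position is uncertain too. In TK6 HSPE1 lay above 2 lines, HSP90AA1 above 1 and HSPA4 above 1. The mean of HSPB1 in MT1 lay below all 24, which rests on its lower duplicate (5.96), since the other (8.16) lay above lines 2 (7.78) and 14 (8.07). These positions were not tested.

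Of 102 other chaperone and cochaperone genes listed, 83 were tested. The counts that follow stand beside the shares of all genes called, 28.7% higher and 13.8% lower in the panel, 21.6% higher and 19.5% lower in TK6 and 2.36% higher and 1.21% lower in MT1, and none was tested against them. In the panel 33 were called higher and 11 lower, with a median change of 0.048, in TK6 31 higher and 24 lower (median 0.025), and in MT1 5 higher and 1 lower (median 0.031). The 12 tested subunits of the cytosolic chaperonin CCT and of prefoldin, which brings actin and tubulin to it, had 8 higher and none lower in the panel (median 0.10). PFDN2 changed by 0.28 ± 0.038, PFDN4 by 0.24 ± 0.042 and PFDN1 by 0.20 ± 0.031 there (SE, n = 19). In TK6 the same list had 4 higher and 4 lower, and PFDN2 fell by 0.68 on the log2 scale.

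HSP70 cochaperones had 5 higher and none lower of 10 in the panel, among them the exchange factors BAG3 (0.30 ± 0.10), BAG2 (0.22 ± 0.053) and BAG4 (0.21 ± 0.037; SE, n = 19). In TK6 they had 5 higher and 1 lower, among them ST13, which binds HSP70 (0.76 ± 0.055), the ubiquitin ligase STUB1 (0.59 ± 0.085) and BAG3 (0.56 ± 0.18). The HSP90 cochaperones had 4 higher and 4 lower of 14 in the panel, with CHORDC1 (0.38 ± 0.063) and TTC4 (0.25 ± 0.042) higher and the phosphatase PPP5C lower (-0.23 ± 0.049). In TK6 they had 5 higher and 3 lower, with UNC45A at 0.61 ± 0.14, PPP5C at -0.73 ± 0.15 and SUGT1 at -0.57 ± 0.081.

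The 19 other J-domain proteins had 10 higher and 2 lower in TK6, with a median of 0.32. DNAJB6 changed by 1.82 ± 0.094, DNAJA1 by 1.67 ± 0.090 and DNAJC7 by -1.14 ± 0.28 (SE, n = 2 each). In the panel 6 were higher and 2 lower, with DNAJC9 at 0.28 ± 0.041, DNAJA1 at 0.25 ± 0.036 and DNAJC7 at -0.28 ± 0.072 (SE, n = 19). DNAJA1 was higher with MNNG in 19 of 19 panel lines. Of the 7 tested HSP70 relatives, 4 were higher and 1 lower in TK6, with the testis-associated HSPA1L at 1.08 ± 0.36, HSPA2 at 0.95 ± 0.13 and HSPA13 at -1.06 ± 0.17, while in the panel only HSPA13 was called, at -0.10 ± 0.039.

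Of 17 tested mitochondrial chaperones and proteases other than the chaperonin, 12 were called lower, 3 higher and 2 not at all in TK6, beside 19.5% of all genes lower and 21.6% higher, with a median change of -0.68, against -0.029 over all genes. The matrix protease LONP1 changed by -2.54 ± 0.15, the disaggregase CLPB by -1.54 ± 0.21 and TRAP1, the mitochondrial HSP90, by -1.43 ± 0.092 (SE, n = 2 each). The number called lower was 9 to 13 under every alternative save the use of all arrays, where it was 1. In the difference between MT1 and TK6, 9 of the 17 were higher and none lower, with a median of 0.75, beside 12.5% of all genes higher and 12.2% lower. That difference rests on 1 MNNG array of MT1, and the 9 were 3 on median centring, 5 on the deposited values and 0 with all arrays. In MT1 itself 1 was called, higher. In the panel 8 were higher and 4 lower (median 0.032), with LONP1 at -0.35 ± 0.040, GRPEL2, an exchange factor of mitochondrial HSP70, at 0.24 ± 0.043 and DNLZ, which binds mitochondrial HSP70, at 0.19 ± 0.037 (SE, n = 19).

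**Figure D5:**
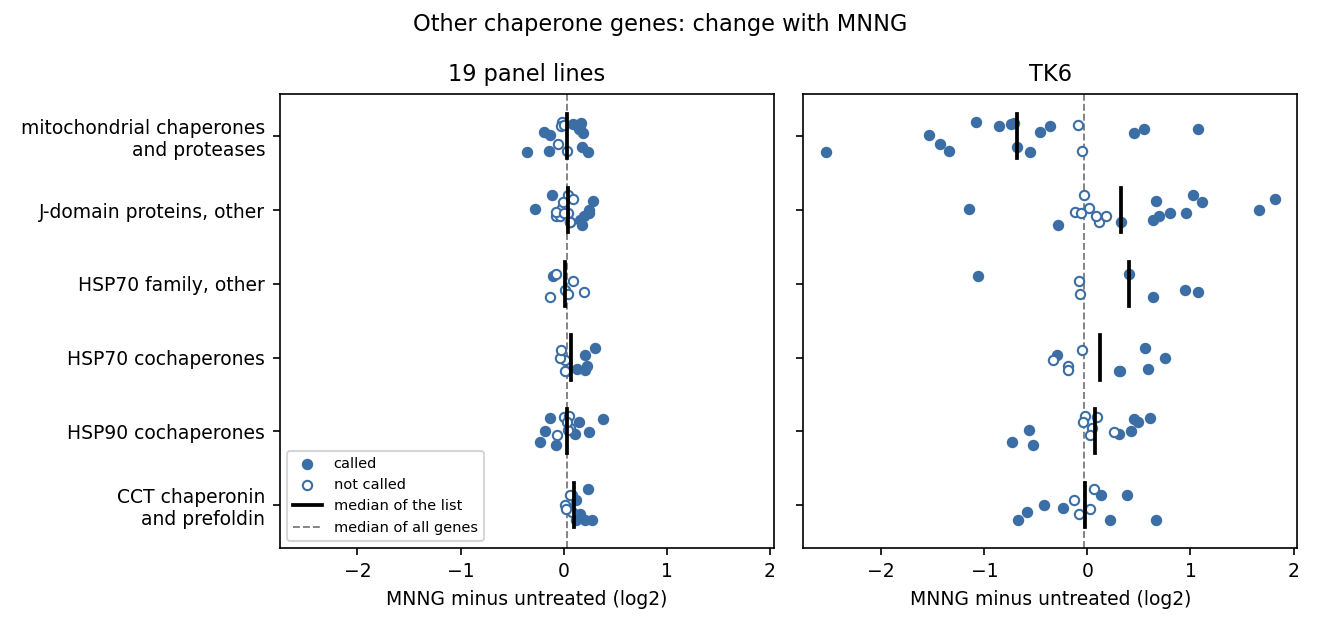
Change with MNNG (horizontal axis, MNNG minus untreated, log2) of the tested genes of 6 chaperone lists in the 19 panel lines (left) and in TK6 (right), filled where called and open where not, with the median of each list as a bar and that of all genes as a dashed line. In TK6 the median of the mitochondrial list lies at -0.68 and that of the J-domain list at 0.32, while in the panel all 6 medians lie between 0.013 and 0.10.

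Of the other small heat shock proteins and the other heat shock factors and their regulators, 2 each passed the filter on low values. HSPB7 (0.18 ± 0.070) and HSBP1, which binds HSF1 (0.14 ± 0.028), were called higher in the panel (SE, n = 19), and HSBP1 was lower in TK6 (-0.39 ± 0.080).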

How the data were processed

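The members and gene lists were chosen with earlier results of these data known. The deposited values are linear intensities that the authors made with PLIER, per the submitters' processing notes. Its version is not given in the sources used here. Array medians were 16.0 to 64.4, near the floor of 16, where changes cannot be measured.

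Intensities plus 16 were put on a log2 scale and quantile normalised over 82 arrays. The brightest probe set with 1 symbol stood for each of 19775 genes, and the dimmest 30% were left out. Of 54675 probe sets 41097 had 1 symbol, 1801 several and 11777 none. Models were fitted with limma 3.58.1 in R 4.3.3 (eBayes with trend), and genes called at an adjusted p below 0.05 (Benjamini-Hochberg over 13842 genes). Panel lines were blocks with duplicates averaged. All other contrasts and F tests used group means over single arrays (35 residual degrees of freedom). Code was tested on simulated data. Arrays were left out by the spiked cre transcript, with a threshold of 2 log2 units.

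All members were named, with up to 3 called genes of largest change per list in the panel and in TK6, and the 2 genes closest to each member. Alternatives covered pseudocounts, scaling, filters, probe sets, trend, blocks, all arrays, and leaving out lines or replicates. Replicate numbers showed no consistent pairing in the 9 lines with 2 kept arrays in each condition (8 panel lines and TK6). There, duplicate differences correlated at -0.62 to 0.14 between conditions, over 0.1 in 2 lines. The 11 panel lines with 1 kept MNNG array, and MT1, could not be checked. Kept MNNG arrays of replicate 1 covered 17 panel lines and those of replicate 2 covered 10.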

Additional observations from a re-analysis of the deposited data

Results flagged for a closer look

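Between MT1 and TK6, 4 of 9 members differed in their response to MNNG by limma's test of the difference itself, beside 24.7% of all genes. HSPD1 differed by 0.27, HSP90AA1 by -0.44, HSPH1 by -0.43 and HSPA4 by -0.36 log2 units (MT1 minus TK6, 1 MNNG array of MT1 and 2 of TK6). All 4 calls were lost on the deposited values, on median centring and with TK6 and MT1 fitted alone. Between the 19 panel lines 3 of 9 members differed in their response by limma's F test, beside 6.13% of all genes. HSPE1 had an F of 4.74, HSP90AB1 2.97 and HSPH1 5.15. The calls of HSPE1 and HSP90AB1 were lost on median centring, and that of HSPH1 on the deposited values. The causes were not tested.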

How the results depend on the processing

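Of 1413 values of members recomputed, 1275 kept their call and direction or stayed uncalled, 109 were no longer called (83 without counting the use of all arrays), 19 were newly called and 10 changed sign. In another 36 the sign differed with no call on either side. Median centring turned HSP90AA1 in the panel (-0.13) and HSPE1 in TK6 (-0.010). Using all arrays turned HSPE1 (-0.32), HSP90AA1 (-2.48), DNAJB1 (-0.44), HSPA4 (0.16) and HSF1 (0.37) in the panel, HSPE1 (-2.72) and HSPA4 (0.058) in MT1, HSPA4 in MT1 minus TK6 (0.038), and the pair differences HSPE1 minus HSPD1 (-0.18) and HSP90AA1 minus HSP90AB1 (-1.23). The causes were not tested.

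Counts over all genes moved by over 1.5 times as follows. On the deposited values they were 3623 in TK6 (5697 as reported), 99 in MT1 (493), 1294 for MT1 minus TK6 (3415), 1591 for untreated MT1 minus TK6 (3494) and 79 for response differences between panel lines (849). The median of all genes then stood at 0.12 in TK6, 0.31 in MT1, 0.20 in the difference and 0.13 in the panel, and the panel had 4100 higher and 961 lower. On median centring they were 3291 in the panel (5892), 67 in MT1, 1682 for the difference, 2057 untreated and 442 for panel differences, and the MT1 median was -0.13. With all arrays they were 9685 in the panel, 464 in TK6, 14 in MT1, 126 for the difference, 178 untreated, 290 for panel response differences and 1379 for untreated panel differences (9421). TK6 and MT1 alone gave 0 in MT1, 1915 for the difference and 2225 untreated. The panel had 2097 without a line block and 2415 in lines with both MNNG arrays, where 254 genes differed in response, an alternative added after seeing the data. Leaving out lines or replicates gave 1207 (10 lines, without replicate 1) to 6262 in the panel, 4794 to 4983 in TK6, 212 to 326 in MT1, 2892 to 3139 for the difference, 2741 to 2936 untreated, 424 to 966 for response differences, 9137 to 9550 for untreated panel differences, and 0.24 to 0.37 and 0.21 to 0.24 for the pair differences. Leaving out a whole replicate could not be fitted for group means. A replicate block gave 113 in MT1, 5387 in TK6, 4868 in the panel and 85 for response differences. Replicate numbers showed no consistent pairing in the 9 lines that could be checked.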
